A study of Mus musculus with 56 samples.

Results

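Transcripts of 10 genes of the endoplasmic reticulum (ER) stress response and of the ATF4 pathway were followed in mouse liver. They are the chaperones and folding enzymes Hspa5, Hsp90b1, Calr, Pdia4 and Dnajb9, and the regulators Xbp1, Atf4, Ddit3, Atf3 and Trib3. The genes were taken by name, with earlier results of these data known, and all 10 were found among the 23813 genes of the deposited RNA table, where the first listed transcript stands for each gene. In WT liver, 2 of the 10 genes, Atf4 and Atf3, had higher transcripts in hyperthyroid than in hypothyroid mice, where 24.5% of all genes tested rose. The Atf3 call was lost in 4 of the 8 fits that left out a library. In hypothyroid mice with a mutated corepressor NCOR1, 0 of the 10 genes passed the test, where 0.725% of all genes rose and 0.544% fell. Both counts are near these backgrounds.

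Polyadenylated RNA was sequenced from livers of 12 male mice, 4 in each of 3 groups. All mice, including the controls, were made hypothyroid first, by 16 days on chow low in iodine that held 0.15% PTU, an inhibitor of thyroid hormone synthesis. Hypothyroid WT mice received PTU and no T3, hyperthyroid WT mice were in addition injected with 5 μg of the active thyroid hormone T3 on the last 4 to 6 days, and hypothyroid L-NCOR1ΔID mice received PTU and no T3. By the study's methods, injections were of T3 or of vehicle. L-NCOR1ΔID mice express, in liver, an NCOR1 that lacks domains needed to bind thyroid hormone receptors, and were kept on a mixed C57BL/6;129S background. The strain of the WT mice sequenced here is not given in the sources used. Mean ages in the study's animal table, which covers more mice than those sequenced, round to 5 months for both WT groups and 3 months for the L-NCOR1ΔID mice, so that genotype and age cannot be told apart. Replicates are separate mice, and the same 4 hypothyroid WT libraries serve as controls in both comparisons.

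The ER folds secreted and membrane proteins, of which hepatocytes make large amounts. When unfolded proteins gather, the sensors IRE1 (Ern1), PERK (Eif2ak3) and ATF6 signal to the nucleus: IRE1 splices Xbp1 mRNA, cleaved ATF6 and spliced XBP1 induce chaperone genes, and PERK phosphorylates the initiation factor eIF2α. Phosphorylated eIF2α slows general protein synthesis but favours translation of Atf4 mRNA, and ATF4 in turn induces genes of amino acid supply and the regulators Ddit3, Atf3 and Trib3. The kinase GCN2 (Eif2ak4) reaches ATF4 by the same phosphorylation when amino acids are short. Only RNA abundance was measured here, not splicing, phosphorylation or protein.

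The DNA elements through which this response reaches its genes can be read in the promoters. The ER stress response element (ERSE; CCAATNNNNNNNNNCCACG) is bound by ATF6 together with the CCAAT-binding factor NF-Y, and the CARE (TGATGNAA) by ATF4 with a C/EBP partner. Both strands were searched from 250 bases before to 50 bases after the RefSeq start site of each gene (GRCm38.p6 table, matched exactly once each in mm9). An ERSE lay in the window of 3 of the 10 genes, Hspa5, Hsp90b1 and Calr, and in 0.119% of all 32851 windows. These sites are shown because they mark the chaperones that share the element, with 5 bases on either side, in the direction of the element, and with its CCAAT and CCACG boxes in capitals. In Hspa5 the element ended 47 bases before the RefSeq start site (chr2:34627540-34627568, + strand). GENCODE M1 starts Hspa5 further upstream, at 34627490, and by that annotation the element lies in an exon. Hsp90b1 held a pair of them, a distal one (chr10:86168378-86168406, - strand) and a proximal one in the opposite orientation (chr10:86168273-86168301, + strand), and the Calr element is at chr8:87370969-87370997 on the + strand.
Hspa5: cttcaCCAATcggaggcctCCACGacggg
Hsp90b1, distal: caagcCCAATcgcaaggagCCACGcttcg
Hsp90b1, proximal: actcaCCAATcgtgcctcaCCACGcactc
Calr: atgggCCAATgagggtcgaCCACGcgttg
A CARE was found in 2 of the 10 windows, those of Atf3 and Trib3, and in 3.97% of all windows. The Trib3 match starts 14 bases after the start site. The Atf3 match lies 110 to 103 bases before it and is shown in capitals (chr1:193007310-193007327, + strand).
Atf3: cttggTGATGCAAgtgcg
No ERSE or CARE was found in the windows of Pdia4, Dnajb9, Xbp1, Atf4 and Ddit3, which says only that these letters are not in the windows searched. A related element, ERSE-II (ATTGGNCCACG), was in 0 of the 10 windows.

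Longer stretches of the Calr and Atf3 promoters show where these elements sit. Each is written on the gene's own strand, which is the - strand in both, and stops before the first base that GENCODE M1 annotates as exon. The capitals are the ERSE of Calr and the CARE of Atf3, here on the opposite strand and so read as their reverse complement. The Calr stretch runs from 250 to 4 bases before the start site (chr8:87370834-87371080), the Atf3 stretch from 250 to 8 bases before it (chr1:193007220-193007462).
Calr: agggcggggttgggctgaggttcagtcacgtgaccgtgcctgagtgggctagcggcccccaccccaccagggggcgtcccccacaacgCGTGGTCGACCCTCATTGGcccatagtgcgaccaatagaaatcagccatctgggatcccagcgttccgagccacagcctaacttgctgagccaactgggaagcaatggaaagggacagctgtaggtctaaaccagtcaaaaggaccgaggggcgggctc
Atf3: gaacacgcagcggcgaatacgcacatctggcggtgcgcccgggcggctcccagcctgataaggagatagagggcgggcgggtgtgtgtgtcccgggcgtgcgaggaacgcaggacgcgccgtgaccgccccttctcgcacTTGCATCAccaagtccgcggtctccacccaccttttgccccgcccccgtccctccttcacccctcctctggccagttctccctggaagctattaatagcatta
All 10 start sites lay inside a deposited region of acetylated histone H3, a region merged by the authors over 2 marks (H3K9Ac and H3K27Ac) and over hypo- and hyperthyroid WT liver. Of 9333 protein-coding genes with a mean of at least 1 RPKM, 92.8% had their start site in such a region. The regions at the 10 genes were 4513 bp (Dnajb9) to 17127 bp (Xbp1) long, with a median of 10139 bp, against a median of 4346 bp at the start sites of those expressed genes. The list gives positions only, so that no difference in acetylation between groups can be read from it.

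Facts of the whole table bear on the values below. Values are RPKM, reads per kilobase of transcript scaled to the reads of the library. Depth relative to hypothyroid WT replicate 1, read from the steps between low values, ranged from 0.681 to 1.37, and the hyperthyroid libraries were the shallowest (0.681 to 0.835). The label checks went as follows. Dio1 and Thrsp, both induced by T3, rose in hyperthyroid liver by 6.20 and 2.29 on the log2 scale (limma, adjusted p = 0.00118 and 8.1e-04), while Ncor1 was at 14.7 ± 0.665 RPKM in hypothyroid WT and 13.0 ± 0.844 in L-NCOR1ΔID liver (SD, n = 4), which checks nothing, since the mutant gene is still transcribed. The 6 hepatocyte markers summed to 42850 to 54925 RPKM in hypothyroid WT, 20652 to 28768 in hyperthyroid WT and 35872 to 38601 in L-NCOR1ΔID liver, and 3 of the 6 fell with T3. Of the endothelial markers 3 of 6 rose with T3 (40.7 to 59.97 against 60.6 to 72.9 RPKM summed), of the stellate cell markers 2 of 6 (10.5 to 18.2 against 15.8 to 20.9), and of 5 cholangiocyte markers 1 rose and 1 fell. Among all genes, 24.5% rose and 7.71% fell with T3. With libraries scaled by the median of gene ratios, 13.7% rose and 12.4% fell. Then 2 of 6 hepatocyte markers fell, 1 of 6 endothelial and 1 of 6 stellate cell markers rose, and of 5 cholangiocyte markers 0 rose and 1 fell. No marker of any list passed the test in L-NCOR1ΔID liver, where 0.725% of all genes rose and 0.544% fell. This count is near the background and does not show an equal mix of cells. Of the 6 hepatocyte markers, 2 had every L-NCOR1ΔID library below every hypothyroid WT library (5.36% of all genes) and 0 above (7.78%). Hyperthyroid WT replicate 3 stood apart in the exocrine pancreas markers, which summed to 527 RPKM there and to between 68.5 and 83.3 in the remaining hyperthyroid libraries, where nearly all came from Cela1. In that library Ctrb1 reached 142 RPKM, Cpa1 89.5 and Pnliprp1 44.3, against at most 2.26, 1.64 and 1.09 in any of the other 11. Prss1 was listed at 0 in all 12. Acinar cells of the pancreas are known for abundant ER chaperones, and the T3 values of the 10 genes and the counts of the wider lists are also given without that library. How much of the member values in replicate 3 comes with the pancreatic RNA was not tested.

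The 10 genes spanned a wide range of abundance. In hypothyroid WT liver, Calr (344 ± 48.5 RPKM), Hspa5 (338 ± 86.8) and Hsp90b1 (298 ± 37.4; SD, n = 4) were the highest and overlapped one another. Xbp1 (91.7 ± 13.6) and Pdia4 (87.3 ± 12.6) followed and overlapped, as did Dnajb9 (47.5 ± 12.7) and Atf4 (46.7 ± 4.48). Ddit3 (12.4 ± 3.28) and Trib3 (6.50 ± 3.46) were low and overlapped narrowly, and Atf3 (0.761 ± 0.192) was the lowest in every library of that group. Atf4 varied least between hypothyroid WT mice, with a coefficient of variation of 9.60%, and Trib3 most, with 53.2%.

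**Figure D1:**
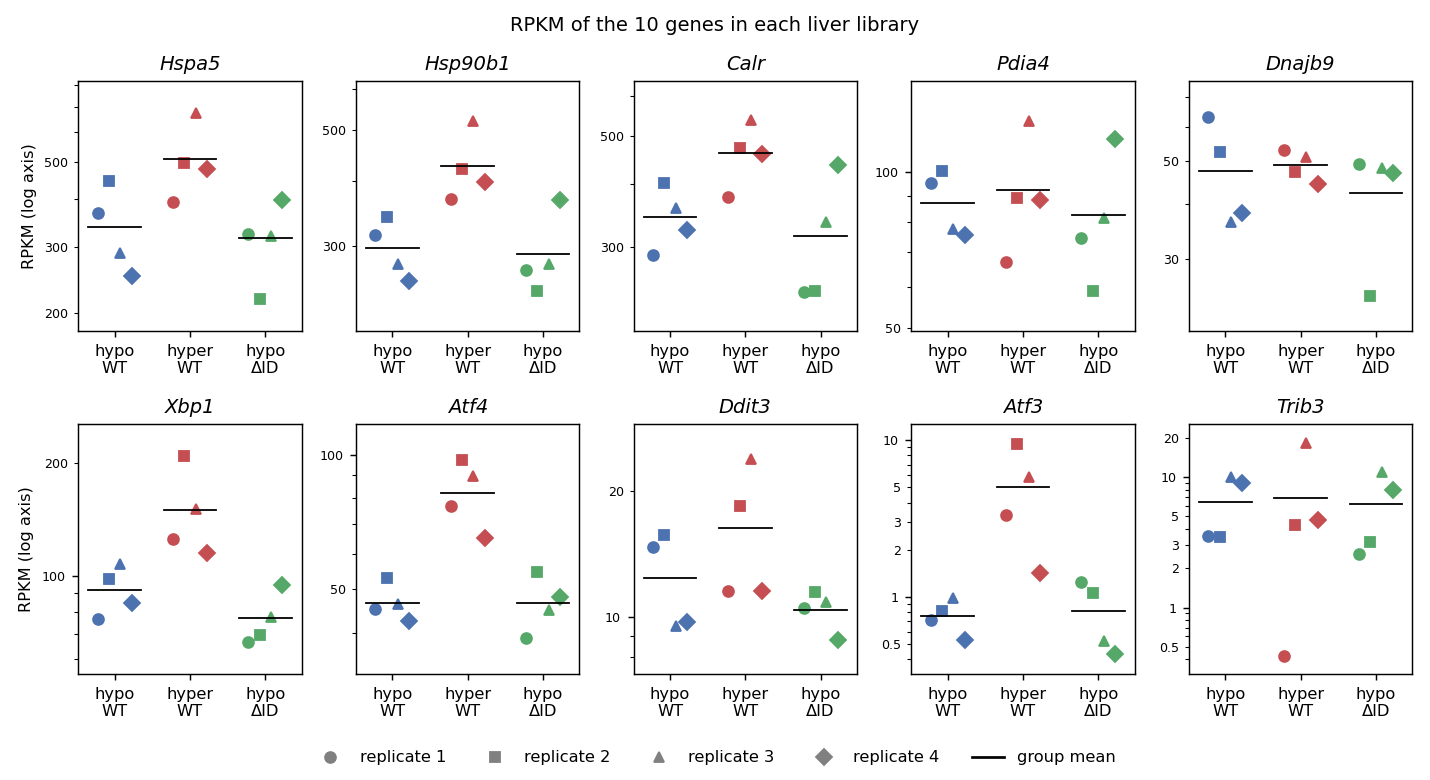
RPKM of the 10 genes (1 panel each, log axis) in the 4 liver libraries of each group, hypo- and hyperthyroid WT and hypothyroid L-NCOR1ΔID (ΔID), with marker shapes for replicates 1 to 4 and a line at the group mean. All hyperthyroid points lie above all hypothyroid WT points for Hsp90b1, Xbp1, Atf4 and Atf3, and Trib3 of the hyperthyroid group runs from 0.426 to 18.3.

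The first comparison asked which transcripts respond to T3 in WT liver. Of the 10 genes, 2 rose past an adjusted p of 0.01, Atf4 and Atf3, and 0 fell. Among all 13941 genes tested, 24.5% rose and 7.71% fell at that threshold, so that the share of the 10 genes that rose is near the background. At an adjusted p of 0.05, 6 of the 10 were higher and 0 lower, against 37.6% and 11.7% of all genes. The median log2 fold change was 0.47 for the 10 genes and 0.23 for all genes, and 4 of the 10 had every hyperthyroid library above every hypothyroid one, as had 35.8% of all genes, and for 0 of the 10 were all hyperthyroid libraries below (10.8% of all genes). Because most genes shifted up in RPKM, an alternative scaling of each library by the median of gene ratios, which sets the median of all genes to 0.04, is given beside each of the 10 genes. Bulk RNA cannot tell a change in the RNA per cell from a change in the number of cells of a type.

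Atf4 (chromosome 15, 80085614 to 80087970, + strand; mm9, GENCODE M1), the transcription factor at the centre of the integrated stress response, was at 45.1, 52.9, 46.3 and 42.4 RPKM in hypothyroid WT replicates 1 to 4. It was at 77.0, 97.2, 89.8 and 65.1 RPKM in the 4 hyperthyroid mice. The groups were fully separated, and Atf4 was 1.75-fold higher (log2 fold change 0.80 ± 0.13 SE, 95% interval 0.52 to 1.09; limma, adjusted p = 9.7e-04). The call held with each of the 8 libraries left out (adjusted p at most 0.00412), without hyperthyroid replicate 3 (log2 fold change 0.76, adjusted p = 0.00353) and under the alternative scaling (0.60, adjusted p = 0.00547). A second listed Atf4 transcript had values within 10.9% of these.

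Atf3 (chromosome 1, 192994175 to 193007219, - strand), a stress-induced transcription factor that ATF4 and also growth and inflammatory signals switch on, was at 0.712, 0.815, 0.989 and 0.529 RPKM in hypothyroid WT liver. The hyperthyroid values were 3.34, 9.43, 5.87 and 1.42 RPKM, all above the hypothyroid ones but 6.66-fold apart among themselves, with replicate 2 highest and replicate 4 lowest. Atf3 rose by 2.30 ± 0.49 on the log2(RPKM + 0.1) scale (95% interval 1.19 to 3.40; limma, adjusted p = 0.00434). The call was lost in 4 of the 8 fits that left out a library (without hypothyroid WT replicate 1, 2 or 4, or hyperthyroid replicate 3), with adjusted p of 0.0110 to 0.0148 and log2 fold changes of 2.12 to 2.33. It held under the alternative scaling (2.11; limma, adjusted p = 0.00846). The genes of the early response list moved with it by library: 7 of 8 were highest in hyperthyroid replicate 2 and 6 of 8 lowest in replicate 4. In that list Egr1 rose by 3.85 (limma, adjusted p = 7.1e-04) and Ier3 by 1.26 (limma, adjusted p = 0.00874). The Ier3 call was lost in 5 of 8 fits that left out a library (limma, adjusted p up to 0.0256) and under the alternative scaling (adjusted p = 0.0248). The part of the early response genes in the Atf3 result was not tested. The 6 leukocyte markers summed to 1.72 to 4.27 RPKM in hypothyroid WT and 4.81 to 24.98 in hyperthyroid liver, 3 of 6 past the threshold upward, and all 6 macrophage markers rose (30.3 to 41.8 against 88.9 to 145 RPKM summed). Of all genes, 24.5% rose. The counts were also 3 and 6 under the alternative scaling, where 13.7% of all genes rose. The part of these markers in the Atf3 result was not tested either.

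Xbp1 (chromosome 11, 5420662 to 5425896, + strand), which encodes the transcription factor that IRE1 activates by splicing, was at 76.8, 97.9, 107 and 84.7 RPKM in hypothyroid WT and 126, 209, 151 and 115 RPKM in hyperthyroid WT liver. The groups did not overlap. The log2 fold change was 0.68 ± 0.18 (95% interval 0.27 to 1.10), which missed the threshold (limma, adjusted p = 0.0134). It was 0.67 without hyperthyroid replicate 3 (limma, adjusted p = 0.0332) and 0.48 under the alternative scaling (adjusted p = 0.0681), and passed without hyperthyroid replicate 4 (0.80, adjusted p = 0.0085). The 2 listed Xbp1 transcripts differed by at most 0.652% in any library, so that these values do not separate spliced from unspliced Xbp1.

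Ddit3 (chromosome 10, 126727830 to 126733344, + strand), which encodes CHOP, a factor that favours cell death under lasting stress, was at 14.7, 15.7, 9.48 and 9.70 RPKM in hypothyroid WT and 11.5, 18.4, 24.0 and 11.5 RPKM in hyperthyroid WT liver. The groups overlapped, with hyperthyroid replicates 2 and 3 above and replicates 1 and 4 within the hypothyroid range. The log2 fold change was 0.36 (95% interval -0.24 to 0.96; limma, adjusted p = 0.28), and 0.16 both without replicate 3 and under the alternative scaling. Trib3 (chromosome 2, 152163158 to 152169768, - strand), a pseudokinase that dampens ATF4 and AKT signalling, was at 3.55, 3.50, 9.94 and 9.01 RPKM in hypothyroid WT. In hyperthyroid WT liver it was at 0.426, 4.33, 18.3 and 4.72 RPKM, a 43.0-fold range that held both the lowest and the highest of the 12 libraries. Its log2 fold change of -0.63 had a 95% interval of -2.71 to 1.44 (limma, adjusted p = 0.59), and was 0.32 without hyperthyroid replicate 1, -1.39 without replicate 3 and -0.83 under the alternative scaling. These data do not fix a direction for Trib3.

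Of the chaperones, Hspa5 (chromosome 2, 34627490 to 34632051, + strand) encodes BiP, the ER Hsp70 that also holds the stress sensors inactive. It was at 367, 446, 288 and 251 RPKM in hypothyroid WT and 393, 499, 674 and 480 RPKM in hyperthyroid WT liver, so that hyperthyroid replicate 1 lay within the hypothyroid range. The log2 fold change of 0.61 (95% interval 0.14 to 1.08) missed the threshold (limma, adjusted p = 0.0373), and was 0.46 without hyperthyroid replicate 3 (adjusted p = 0.0895) and 0.40 under the alternative scaling (adjusted p = 0.14). Hsp90b1 (chromosome 10, 86152954 to 86168254, - strand), the ER Hsp90, was at 316, 341, 278 and 258 RPKM in hypothyroid WT and 369, 421, 521 and 397 RPKM in hyperthyroid WT liver. The groups did not overlap, and a log2 fold change of 0.51 (95% interval 0.22 to 0.81) lay just outside the threshold (limma, adjusted p = 0.0102). It passed without hyperthyroid replicate 1 (0.58; limma, adjusted p = 0.00856) and with a filter at a mean of 1 RPKM (adjusted p = 0.00857), and not without replicate 3 (0.41, adjusted p = 0.0195) or under the alternative scaling (0.31, adjusted p = 0.0667). Calr (chromosome 8, 87365749 to 87370833, - strand), a lectin chaperone that stores calcium, was at 290, 403, 359 and 325 RPKM in hypothyroid WT and 378, 473, 537 and 460 RPKM in hyperthyroid WT liver. Replicate 1 again overlapped, and the log2 fold change was 0.42 (95% interval 0.12 to 0.73; limma, adjusted p = 0.0278), 0.35 without replicate 3 (adjusted p = 0.0672) and 0.22 under the alternative scaling (adjusted p = 0.18).

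Pdia4 and Dnajb9 had log2 fold changes below the median of all genes. Pdia4 (chromosome 6, 47746141 to 47763511, - strand), a disulfide isomerase, was at 95.5, 101, 77.6 and 75.6 RPKM in hypothyroid WT and 67.2, 89.1, 125 and 88.4 RPKM in hyperthyroid WT liver, which held both extremes of the 8 WT libraries. Its log2 fold change was 0.06 (95% interval -0.34 to 0.46; limma, adjusted p = 0.80), -0.10 without hyperthyroid replicate 3 and -0.14 under the alternative scaling. Dnajb9 (chromosome 12, 45306884 to 45311055, - strand), a BiP cochaperone and a target of spliced XBP1, was at 63.2, 52.4, 36.3 and 38.1 RPKM in hypothyroid WT and 53.0, 47.2, 51.2 and 44.3 RPKM in hyperthyroid WT liver. All hyperthyroid values fell inside the hypothyroid range, and the log2 fold change was 0.08 (95% interval -0.30 to 0.46; limma, adjusted p = 0.73), 0.05 without hyperthyroid replicate 3 and -0.13 under the alternative scaling. The intervals of both genes leave out a change as large as the 1.75-fold of Atf4.

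**Figure D2:**
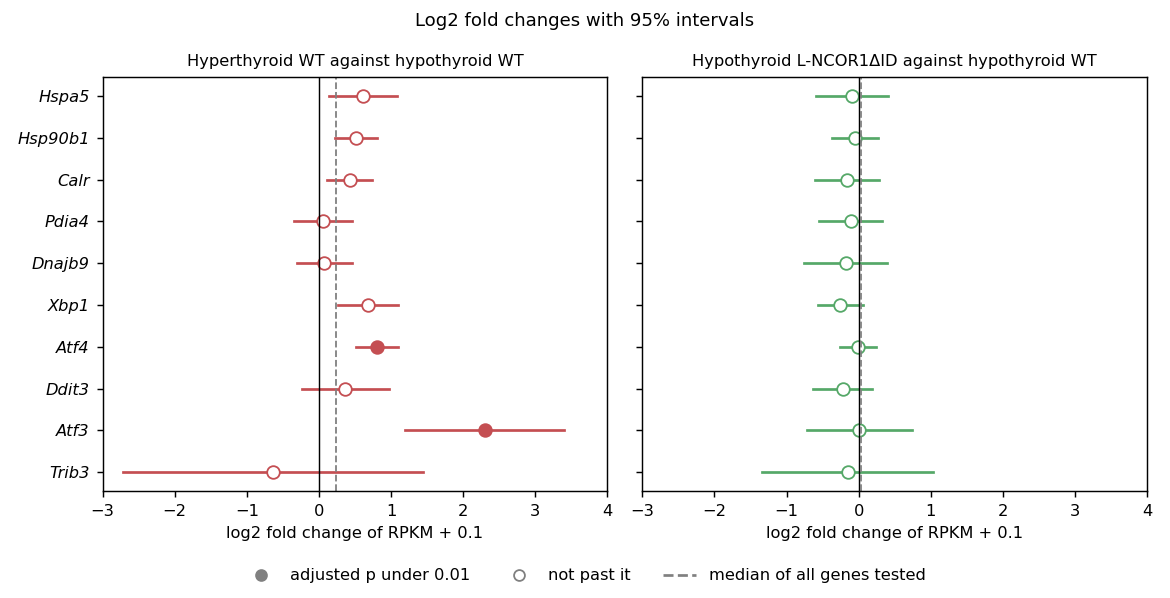
Log2 fold change of RPKM + 0.1 with 95% interval for the 10 genes, hyperthyroid against hypothyroid WT (left) and hypothyroid L-NCOR1ΔID against hypothyroid WT (right); filled points have an adjusted p under 0.01 and the dashed line is the median of all genes tested (0.23 and 0.03). Atf4 (0.80) and Atf3 (2.30) are filled on the left and no point is filled on the right.

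Further genes of the response were counted by list. Of 17 genes of the sensors and their feedback, 7 rose and 0 fell, among them Creb3l2 (log2 fold change 0.998, and 0.80 with a limma adjusted p of 0.0140 under the alternative scaling), a membrane-bound factor related to ATF6, Dnajc3 (0.91), which restrains PERK, and Atf6b (0.85). Ern1 rose by 0.72 and Atf6 by 0.60 (limma, adjusted p = 0.00156 and 0.00148), while Eif2ak3 was at 0.26 (limma, adjusted p = 0.11). Of 20 genes of ER folding, 8 rose and 0 fell, with Dnajb11 (0.99), a BiP cochaperone, Hspa13 (0.97), an Hsp70 relative, and Ero1lb (0.97), an oxidase that drives disulfide formation, the largest. Of 21 genes of ER-associated degradation and the translocon, 12 rose and 0 fell, led by Sel1l (0.91), a part of the degradation ligase, Sec61a1 (0.87), the channel itself, and Sec11c (0.76), a signal peptidase. The shares that rose in these 3 lists were 41.2%, 40% and 57.1%, against 24.5% of all genes, while 7.71% of all genes fell. Under the alternative scaling, where 13.7% of all genes rose and 12.4% fell, the counts were 4 higher and 2 lower, 6 and 1, and 9 and 1. Without hyperthyroid replicate 3, where 18.3% rose and 7.26% fell, they were 5 and 1, 6 and 0, and 11 and 0.

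Of 23 ATF4 targets, 20 were tested, 6 rose (30% of those tested, against 24.5% of all genes) and 2 fell (10% against 7.71%), both near the background. Without hyperthyroid replicate 3, 5 rose and 1 fell. Under the alternative scaling, 5 of 21 tested rose (23.8%, against 13.7% of all genes) and 2 fell (9.52% against 12.4%). The median log2 fold change of the list was 1.06 in the main fit, against 0.23 for all genes, and 0.81 against 0.04 under that scaling. Psat1, of serine synthesis, was at 0.572, 0.646, 2.45 and 0.559 RPKM in hypothyroid WT and 1.89, 6.92, 17.5 and 10.6 RPKM in hyperthyroid WT liver. The groups overlapped in 1 library each, and Psat1 rose by 2.90 on the log2 scale (limma, adjusted p = 0.00644), a call lost in 6 of 8 fits that left out a library (adjusted p up to 0.0208) and under the alternative scaling (adjusted p = 0.0101). The transcription factors Atf5 (2.37; 77.7 against 396 RPKM) and Cebpb (2.31; 12.8 against 69.2 RPKM) rose in every fit that left out a library. Vldlr, a lipoprotein receptor, fell by 2.31 and Cth, of cysteine synthesis, fell by 0.50 on the log2 scale (limma, adjusted p = 0.00178 and 0.00717), and the Cth call was lost in 7 of 8 such fits. Of 12 aminoacyl-tRNA synthetases, many of them known ATF4 targets, 10 rose (83.3%, against 24.5% of all genes) and 0 fell, with Yars (1.20), Aars (1.01) and Cars (0.91) largest. The synthetase count was 4 under the alternative scaling, where 13.7% of all genes rose. It was 6 without hyperthyroid replicate 3, 5 without hyperthyroid replicate 4 or hypothyroid WT replicate 2, and 4 without hypothyroid WT replicate 1 or 4, while 17.7% to 19.4% of all genes rose in these 5 fits. Of 9 cytosolic heat shock genes, 0 rose and 2 fell (22.2%, against 7.71% of all genes), also without hyperthyroid replicate 3. Hspa1b fell by 2.03 and Hspb1 fell by 0.88 on the log2 scale, the latter call lost in 6 of 8 fits that left out a library. Of 8 early response genes, 3 rose (37.5%, against 24.5% of all genes) and 0 fell. That count was 1 under the alternative scaling or without any 1 hypothyroid WT library or hyperthyroid replicate 1. It was 2 without hyperthyroid replicate 3 and 5 without hyperthyroid replicate 4.

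**Figure D3:**
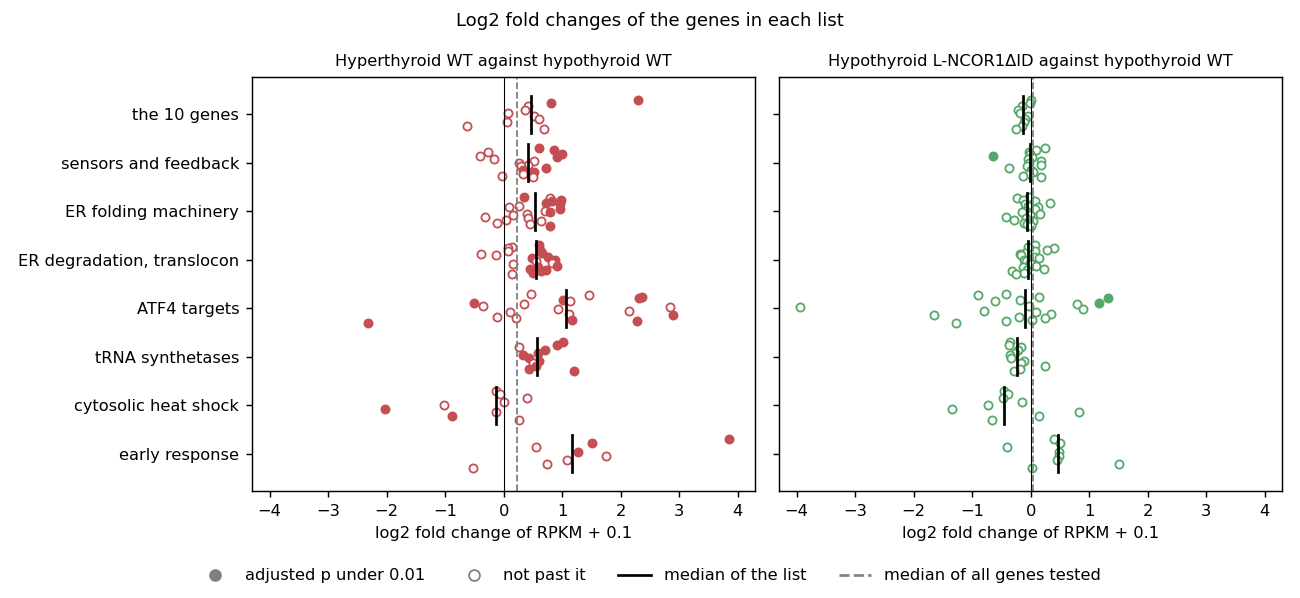
Log2 fold change of every tested gene (points) of the 10 genes and 7 further lists, in both comparisons; filled points have an adjusted p under 0.01, black bars are list medians and the dashed line is the median of all genes tested. On the left, 12 of 21 degradation and translocon genes and 10 of 12 synthetases are filled to the right of 0; on the right, Creb3l3, Cth and Cebpb are the only filled points.

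The highest and the lowest of the 4 hyperthyroid livers were the same for most ER genes. Replicate 3 was the highest and replicate 1 the lowest of the 4 for 4 of the 5 chaperones. Replicate 3 was also the highest for 17 of 20 folding genes, 16 of 21 degradation and translocon genes, 11 of 12 synthetases and 13 of 20 ATF4 targets, and replicate 1 the lowest for 13, 14, 11 and 17 of them. The median log2 difference from the hypothyroid WT mean over the folding genes was 0.22, 0.36, 0.86 and 0.57 in replicates 1 to 4. For ATF4 targets it was 0.12, 1.06, 1.69 and 0.9996, so that replicate 1 lay within the hypothyroid range of -0.32 to 0.23 and the other replicates above it. Replicate 3 is the library with the pancreatic markers and the lowest depth. The libraries between the extremes changed places. Replicate 4, in which Cpa1 was at 0.024 RPKM and Ctrb1 and Pnliprp1 were listed at 0, was second in the median of the folding genes. Replicate 2, with Ctrb1 at 2.26, Cpa1 at 1.64 and Pnliprp1 at 1.09 RPKM, was second for Hspa5, Hsp90b1, Calr and Pdia4. The regulators did not share this pattern: among Xbp1, Atf4, Ddit3, Atf3 and Trib3, replicate 2 was highest for 3 and replicate 3 for 2.

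**Figure D4:**
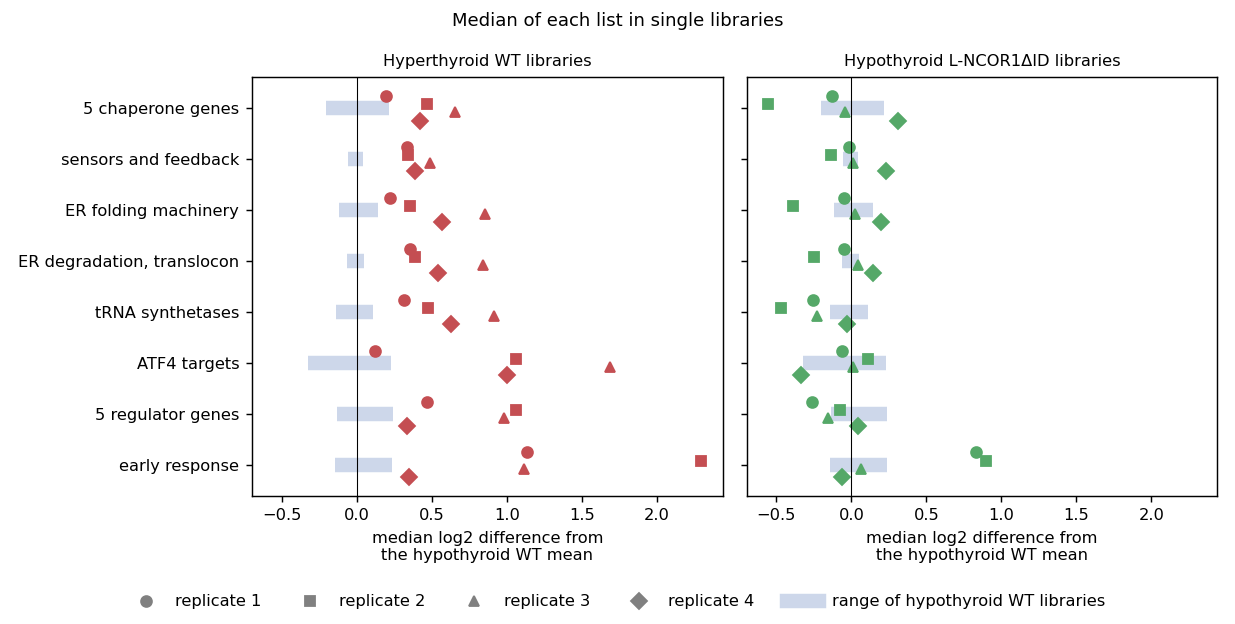
Median over the genes of a list of the difference in log2(RPKM + 0.1) from the hypothyroid WT mean, in each hyperthyroid WT library (left) and each hypothyroid L-NCOR1ΔID library (right); the pale bar is the range of the 4 hypothyroid WT libraries. Hyperthyroid replicate 3 is highest in the ER lists (0.86 for folding genes) and replicate 2 in the early response (2.30); L-NCOR1ΔID replicate 2 is lowest in the ER lists.

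The second comparison asked what the NCOR1 mutation, which disrupts the contact with thyroid hormone receptors, does without hormone. The authors also saw less of the histone deacetylase HDAC3 at sites without the receptor. They propose that the deleted domains may serve other regulators too, so that the comparison does not isolate the receptor contact. Of the 10 genes, 0 rose and 0 fell in hypothyroid L-NCOR1ΔID against hypothyroid WT liver (limma, adjusted p under 0.01), 0 had an unadjusted p under 0.05 (20.5% of all genes had), and for 0 did the groups separate, as they did upward for 7.78% and downward for 5.36% of all genes. Among all 13790 genes tested, 0.725% rose and 0.544% fell, so that a count of 0 among 10 is near the background. The log2 fold changes ran from -0.25 for Xbp1 (95% interval -0.57 to 0.06; limma, adjusted p = 0.33) to 0.01 for Atf3 (-0.72 to 0.74). Atf4 was at 38.8, 54.5, 44.9 and 48.0 RPKM, within or near the hypothyroid WT range, and its difference of -0.01 had an interval of -0.26 to 0.24, which leaves out the size seen with T3. The interval was widest for Trib3, at -1.34 to 1.04. Whether the effect of T3 and that of the mutation differ for a gene was not tested, and both share their controls.

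The chaperones varied between L-NCOR1ΔID mice more than between groups. Hspa5 was at 325, 218, 320 and 399 RPKM, Hsp90b1 at 271, 246, 277 and 368, and Calr at 244, 245, 336 and 438 RPKM in replicates 1 to 4. Replicate 4 was the highest for 4 of the 5 chaperones and replicate 2 the lowest for 4 of the 5. The same held for 13 and 14 of 20 folding genes and for 10 and 10 of 12 synthetases. Pdia4 was at 74.6, 58.9, 81.5 and 116 RPKM. Dnajb9 was at 49.3, 24.7, 48.4 and 47.0 RPKM, with replicate 2 far below the rest. Of the regulators, Xbp1 was at 66.3, 69.5, 77.7 and 94.3 RPKM and Ddit3 at 10.5, 11.5, 10.8 and 8.80 RPKM, both overlapping hypothyroid WT. Atf3 was at 1.26, 1.06, 0.521 and 0.431 RPKM, with replicates 1 and 2 above and replicates 3 and 4 below most WT values, and Trib3 at 2.58, 3.20, 10.98 and 7.99 RPKM.

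Of the wider lists, 1 of 17 sensor and feedback genes passed in L-NCOR1ΔID liver, downward (5.88%, against 0.544% of all genes). Creb3l3, a hepatocyte membrane-bound factor that ER stress and fasting activate, was at 128, 142, 146 and 138 RPKM in hypothyroid WT and 99.6, 86.5, 90.1 and 78.0 RPKM in L-NCOR1ΔID liver. It fell by 0.65 ± 0.09 on the log2 scale (limma, adjusted p = 0.00477), with no overlap, and the call was lost in 6 of 8 fits that left out a library (adjusted p up to 0.0240). Lower values were not particular to the mutant. In hyperthyroid WT liver Creb3l3 was at 84.0, 103, 124 and 110 RPKM, also all below hypothyroid WT (as for 10.8% of all genes), without passing the threshold. Of the 20 ATF4 targets tested, 2 rose (10%, against 0.725% of all genes) and 0 fell. The 2 were Cth (1.17; limma, adjusted p = 0.00324) and Cebpb (1.32; limma, adjusted p = 0.00259), with calls lost in 3 and 2 of 8 such fits. Yet 4 of the 20 had every L-NCOR1ΔID library below every hypothyroid WT library, as had 5.36% of all genes. Among the 4 is Aldh1l2, at 0.101 to 0.117 RPKM in hypothyroid WT and 0.039 to 0.077 RPKM in L-NCOR1ΔID liver. It met the filter of 0.1 RPKM only through the hypothyroid WT libraries, so that its separation carries no weight. For 2 of the 20 every L-NCOR1ΔID library was above, as for 7.78% of all genes. Cth is 1 of the 2 ATF4 targets that fell in hyperthyroid WT liver, whereas Cebpb rose in both comparisons. The other target that fell with T3, Vldlr, was also lower in L-NCOR1ΔID liver, without passing. It was at 0.326 to 0.507 RPKM there and 0.599 to 2.11 RPKM in hypothyroid WT. No gene of the folding, degradation, synthetase, heat shock or early response lists passed (limma, adjusted p under 0.01). Fgf21, a hormone that ATF4 and PPARα induce in liver and which is named here after its values were seen, was at 0.136 to 0.364 RPKM in L-NCOR1ΔID against 1.83 to 20.6 RPKM in hypothyroid WT and 8.80 to 122 RPKM in hyperthyroid WT liver, and did not pass in either comparison (limma, adjusted p = 0.0116 and 0.0335).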

How the data were processed

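The authors aligned the RNA reads, from 2 instrument models in every library, to mm9 with STAR and used HOMER to quantify RefSeq transcripts. The deposited values are RPKM, and tool versions are not given in the sources used here. Counts were not used, so limma 3.58.1 (R 4.3.3) replaced the study's DESeq2. It was fitted to log2(RPKM + 0.1) of the 2 groups compared, with the variance trend on. A gene was tested when 4 or more of those libraries had 0.1 RPKM or more, p-values were adjusted by Benjamini-Hochberg over all genes tested, and a call is an adjusted p under 0.01. Fold changes are on that scale and understate those of low genes. Errors are SDs of RPKM or SEs of the log2 fold change. The deposited table gives no transcript lengths, so that absolute depth is unknown and no counting intervals are given. The list of acetylated regions was deposited by the authors as positions only, and promoter sequences are from RefSeq. Of 31370 transcripts, 1 without a gene name (at most 0.00079% of summed RPKM) was left out, and 0 columns of values were unused.

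In simulated data for the T3 comparison (13941 genes), 70% of genes changed by 1 on the log2 scale and 93% of those changed by 2 were called in the right direction. For the L-NCOR1ΔID comparison (13790 genes) it was 66% and 94%. The changed genes, 100 of each size, were drawn only from genes above a minimum mean and below a maximum SD. These shares therefore do not cover low or variable genes, and far fewer genes were changed than passed in the T3 data. The members and lists were chosen with earlier results of these data known. Besides the 10 genes, each list names its 3 genes with the largest change past the threshold and at least 1 RPKM, and Ncor1, Thrsp and Dio1 check the labels. Ern1, Atf6, Eif2ak3, Fgf21 and single markers were named after their values were seen. Alternatives were other pseudocounts (1 and 0.01), the low filter dropped or replaced by a mean of 1 RPKM, a fit to all 12 libraries, a replicate block, the variance trend off, libraries scaled by the median of gene ratios, each gene's most abundant transcript, other thresholds, and each library left out. Python 3.11.15, numpy 2.4.6, pandas 2.3.3 and matplotlib 3.10.9 were used.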

Additional observations from a re-analysis of the deposited data

Results flagged for a closer look

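Of the 30 sets of 4 values (10 genes in 3 groups), 1 held a value far from the other 3. Dnajb9 in hypothyroid L-NCOR1ΔID replicate 2 was at 24.7 RPKM and in the other 3 mice at 47.0 to 49.3 RPKM, a gap of 0.906 of the whole range, above Dixon's 95% critical value. Chance alone gives about 1 such set in 20. That library was also the lowest of its group for 14 of 20 folding genes.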

How the results depend on the processing

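Among the 10 genes, all 189 alternative values for L-NCOR1ΔID and 176 of those for T3 kept their side of the threshold, 9 gained a call and 5 lost one. The count of the 10 genes higher with T3 was 2 under most settings, 6 at an adjusted p of 0.05, 1 with a log2 fold change above 1 added and 1 to 3 with each library left out. Of all genes, 3413 rose and 1075 fell with T3, and 1902 and 1726 under scaling by the median of gene ratios, 5244 and 1636 at an adjusted p of 0.05, and 1155 and 484 with a log2 fold change above 1 added (libraries left out in turn, 2438 to 2978 and 746 to 994). For L-NCOR1ΔID, 100 rose and 75 fell, 344 and 257 at 0.05, 63 rose without a variance trend, 118 fell with all 12 libraries in 1 fit, and 36 to 110 and 28 to 77 passed with libraries left out. The numbers do not pair the mice, since deviations of same-numbered mice correlated at -0.08 to 0.08 for T3 and -0.21 to 0.27 for L-NCOR1ΔID. With the replicate block, 20 rose and 25 fell in L-NCOR1ΔID, 0 of the 10 genes among them, and Xbp1 passed with T3 (adjusted p = 0.00687). A start site within 1000 bp of an acetylated region also held for 10 of 10. The cause of these moves was not tested. Absolute depth is unknown, so that the counting error of low values was not computed.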
